A study of Homo sapiens with 3 samples.

Results

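The genes described here encode the eukaryotic translation initiation factors, the proteins that bring the small ribosomal subunit, the initiator methionyl-tRNA and an mRNA together at a start codon. They were chosen by name: every protein-coding gene with a symbol of the series EIF1 to EIF6, leaving out the eIF2 kinases (symbols beginning EIF2AK). The rule found 52 genes of 58735 listed, of which 19951 are protein-coding. It comprises 49 core factors and the 3 4E-binding proteins (EIF4EBP1, EIF4EBP2 and EIF4EBP3), which inhibit the cap-binding factor eIF4E and were therefore kept apart from the core factors. The cells were A549, a human lung adenocarcinoma line in wide use, and 3 RNA libraries were sequenced, 1 per condition. Control is the A549 line carrying the control vector, and DDX24-sh1 and DDX24-sh2 carry 1 of 2 different shRNAs against DDX24, a DEAD-box RNA helicase. Each was a stable lentiviral line (pLKO.1 vector) under puromycin selection, grown in F12K medium with serum. The Control cells may carry the empty vector or a control shRNA, since both are described and the labels do not say which was sequenced.

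Each condition had 1 library, so no difference between conditions could be tested and no p-value was computed. A log2 ratio sets the scaled level of a gene in an shRNA library against Control, and the bracketed interval after it is an exact 95% interval from the read counts, which covers counting error only and not the spread between cultures. A gene was called when it was at least 1.5-fold higher, or at least 1.5-fold lower, in both shRNA libraries, provided that its mean over the libraries reached 1 CPM (counts scaled to library size). The same Control library is the denominator of both ratios, so any deviation of that library enters both. The libraries held 17218884 (Control), 18337471 (DDX24-sh1) and 17847190 (DDX24-sh2) counts on genes. DDX24 itself had 2010, 637 and 765 counts in this order, which left 29.6% and 36.0% of its Control level. The deposited FPKM values carry the shRNA names the other way round. Among genes with at least 50 counts, they correspond to the counts within 1% for 100% after the names are exchanged, and for 5.23% and 5.17% as given. The names used here are those of the counts, and any statement that DDX24-sh1 and DDX24-sh2 differ would change places under the FPKM names. The epithelial genes KRT8 and KRT18 had 64704 and 24754 counts in Control, EPCAM had 29 to 32 counts per library, of 6 such genes 1 was called higher (KRT19) and 1 lower (CDH1), where 4.23% and 4.72% of all genes were, and the lung lineage regulator NKX2-1 had 0 counts in every library. Of 7 markers of blood, endothelial and stromal cells, 1 passed 1 CPM (COL1A1, 139 to 174 counts), and PTPRC had 0 counts throughout.

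Initiation proceeds in steps that order the genes below. eIF1 and eIF1A keep the small subunit open while it scans, eIF2 carries the initiator tRNA and is recharged with GTP by eIF2B, and eIF3 is the large scaffold on the small subunit. The cap end of the mRNA is bound by eIF4F, made of the cap-binding eIF4E, the scaffold eIF4G and the helicase eIF4A, while eIF5 and eIF5B act at start codon recognition and subunit joining. The 4E-binding proteins compete with eIF4G for eIF4E, and mTORC1 releases eIF4E by phosphorylating them. In tumour cells this cap-dependent step is known as a point where growth signalling controls protein synthesis.

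Several of these genes have near-copies elsewhere in the genome, which bears on what a count per gene can tell. Stretches of 60 coding bases from the GENCODE 29 transcripts (GRCh38) are shown for the pairs the results turn on. Letters are lower case, and capitals mark the bases at which a pair differs, except in the first pair, which does not differ and in which they mark the start codon.
EIF3C, chr16:28711687-28711746, plus strand: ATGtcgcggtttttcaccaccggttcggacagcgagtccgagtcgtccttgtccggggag
EIF3CL, chr16:28403559-28403618, minus strand: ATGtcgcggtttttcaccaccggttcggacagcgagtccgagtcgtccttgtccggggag
EIF2S2, chr20:34105422-34105481, minus strand: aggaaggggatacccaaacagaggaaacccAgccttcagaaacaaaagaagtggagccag
EIF2S2P4, chr2:170751884-170751943, plus strand: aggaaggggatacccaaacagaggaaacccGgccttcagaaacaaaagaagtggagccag
EIF5A, chr17:7309711-7309770, plus strand: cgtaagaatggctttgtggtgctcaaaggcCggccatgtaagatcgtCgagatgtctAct
EIF5AL1, chr10:79512725-79512784, plus strand: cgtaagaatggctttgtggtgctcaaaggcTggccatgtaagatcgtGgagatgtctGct
EIF1, chr17:41689780-41689839, plus strand: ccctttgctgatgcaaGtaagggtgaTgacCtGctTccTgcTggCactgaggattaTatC
EIF1B, chr3:40310895-40310954, plus strand: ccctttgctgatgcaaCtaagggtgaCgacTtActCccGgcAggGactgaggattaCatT
Over their whole aligned coding sequences EIF3C and EIF3CL were identical (100% of 2739 bases), EIF2S2 and its processed copy EIF2S2P4 shared 98.9% of 981 bases, EIF5A and EIF5AL1 98.9% of 462 bases, and EIF1 and EIF1B 82.0% of 339 bases. A read from the first pair cannot be assigned by its coding sequence, whereas EIF1 and EIF1B differ at 10 of the 60 bases shown. For every member the share of coding 50-base windows that also occur in another gene was counted. It was 0% for 26 of the 52 members, EIF4EBP1 among them, and over 25% for 16.

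Of the 52 members 50 passed 1 CPM, and 5 of these 50 (10.0%) were called. EIF4EBP1, EIF1 and EIF2S2 were lower in both shRNA libraries and EIF3C and EIF4A1 were higher. Over all 13984 genes tested, 8.95% were called, 4.72% lower and 4.23% higher, so the members' share lay near the background. The core factors had a median log2 ratio of -0.06 (DDX24-sh1) and 0.07 (DDX24-sh2), against -0.02 and -0.03 over all genes. At the higher threshold of 2-fold, 1 member was higher (EIF3C) and 0 were lower, against 1.19% and 1.38% of all genes. At a lower threshold, 0.32 on the log2 scale, 3 were higher and 5 lower, against 10.2% and 12.4%. In DDX24-sh1 alone 5 members were at least 1.5-fold lower (10.0%), against 8.25% of all genes. By counting error alone, 8 of the 50 were above Control in both libraries and 13 below, 16.0% and 26.0%, beside a background of 14.0% and 20.6%. Among genes with a mean of 10 CPM or more, the shares were 15.2% and 28.3% of 46 members, against 16.1% and 25.8% of all genes. Together the members took 0.916% of counts in Control, 0.798% in DDX24-sh1 and 0.880% in DDX24-sh2. EIF4E1B (0, 1 and 0 counts), a germline-type homologue of eIF4E, and EIF4EBP3 (7, 2 and 1 counts) did not pass 1 CPM.

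**Figure D1:**
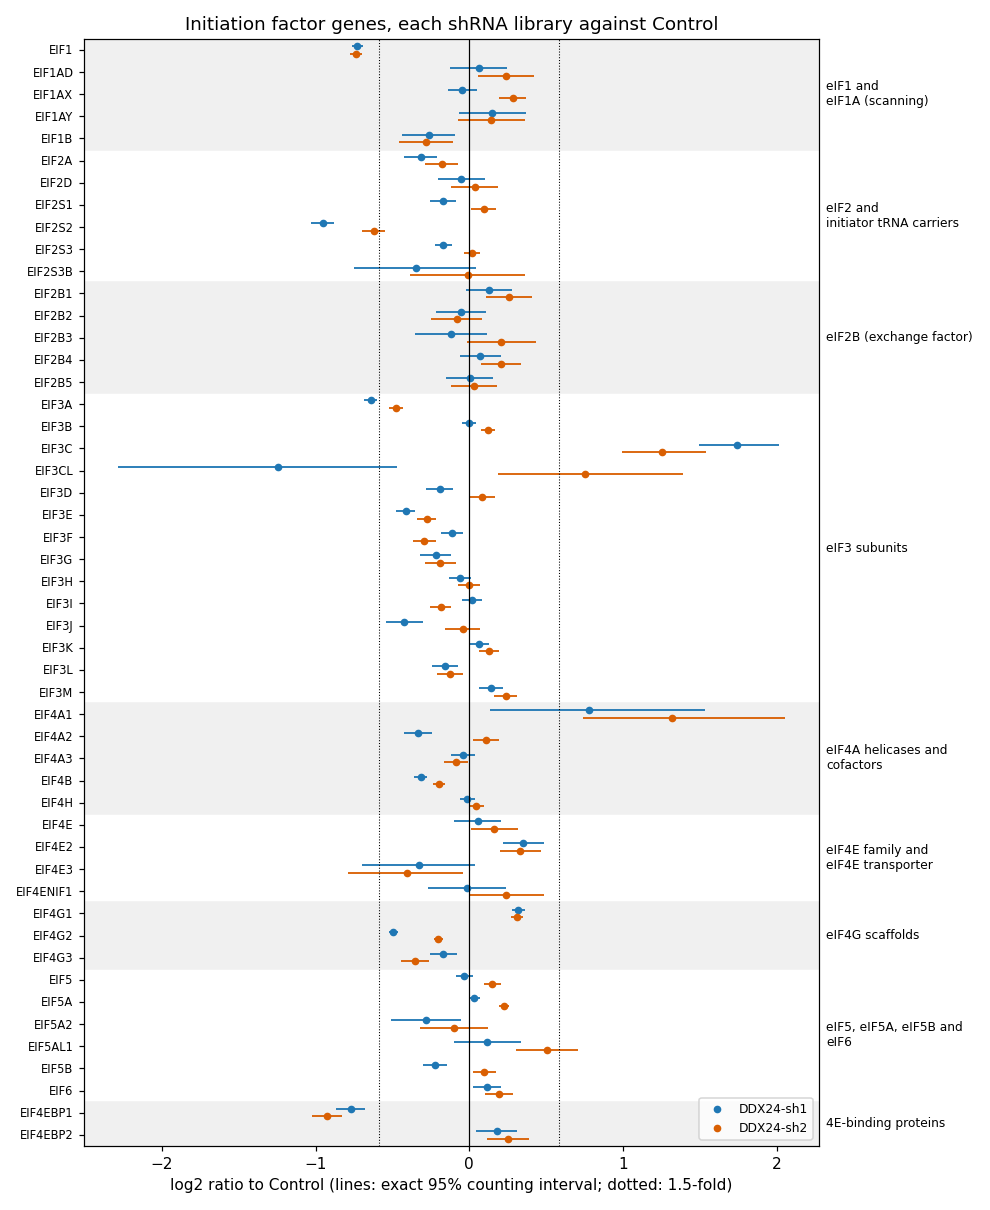
Log2 ratio of each shRNA library to Control (horizontal axis) for the 50 initiation factor genes that reached a mean of 1 CPM, grouped by role. Points are ratios, lines exact 95% counting intervals, and dotted lines mark 1.5-fold. EIF4EBP1, EIF1 and EIF2S2 lie beyond the lower dotted line in both libraries, EIF3C and EIF4A1 beyond the upper one, and EIF3CL spans from -1.24 to 0.75.

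EIF4EBP1, the most abundant 4E-binding protein gene of these cells, was lower in both shRNA libraries. The gene (ENSG00000187840) lies on the plus strand at chr8:38030341-38060365 (GRCh38). It had 2393 counts in Control, 1500 in DDX24-sh1 and 1330 in DDX24-sh2, so both shRNA libraries lay below Control. The log2 ratios were -0.77 (-0.87 to -0.68) and -0.93 (-1.03 to -0.83), which left 58.5% and 52.6% of the Control level. Measured as RPKM, computed from the counts and gene length to compare genes with each other, EIF4EBP1 was the third most abundant member in Control, at 130, against 76.2 in DDX24-sh1 and 69.5 in DDX24-sh2. None of its coding windows occurred in another gene. DDX24-sh2 was below DDX24-sh1 by a further -0.15 (-0.26 to -0.05) on the log2 scale.

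Of the other 4E-binding protein genes, EIF4EBP2 did not share this direction, and that of EIF4EBP3 could not be determined. EIF4EBP2, which has the same eIF4E-binding function, had 816, 989 and 1028 counts in Control, DDX24-sh1 and DDX24-sh2. Its log2 ratios were 0.18 (0.04 to 0.31) and 0.25 (0.12 to 0.39), higher than Control beyond counting error but under 1.5-fold. EIF4EBP3 had too few counts for a ratio to be read, with intervals of -5.21 to 0.49 and -8.38 to 0.07, and 73.4% of its exonic bases are also annotated to the read-through gene ANKHD1-EIF4EBP3 on the same strand. Summed over the 3 genes, the 4E-binding proteins had 3216, 2491 and 2359 counts, with log2 ratios of -0.47 (-0.54 to -0.39) and -0.53 (-0.61 to -0.45). The summed decrease was therefore smaller than that of EIF4EBP1 alone. EIF4EBP1 exceeded EIF4EBP2 19.8-fold per length in Control, 10.3-fold in DDX24-sh1 and 8.75-fold in DDX24-sh2.

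EIF4E, the target of these inhibitors, had 659, 734 and 780 counts in Control, DDX24-sh1 and DDX24-sh2. Its log2 ratios were 0.06 (-0.10 to 0.21) and 0.16 (0.01 to 0.31). Of the coding windows of EIF4E, 56.4% also occur in other genes, and its 5 pseudogenes had 115, 171 and 166 counts. With these added, the log2 ratios of EIF4E were 0.13 (-0.01 to 0.27) and 0.21 (0.07 to 0.35). The RPKM ratio of EIF4EBP1 to EIF4E was 47.6 (43.7 to 52.0) in Control, 26.8 (24.5 to 29.3) in DDX24-sh1 and 22.4 (20.4 to 24.5) in DDX24-sh2, and the Control interval did not overlap the others. Per read rather than per length, the same ratio was 3.63, 2.04 and 1.71. The size of the RPKM ratio depends on the annotated length of EIF4E, while the comparison between libraries does not. Both use the counts of EIF4E without its pseudogenes. These are transcript ratios, and neither protein amount nor phosphorylation was measured in these libraries.

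**Figure D2:**
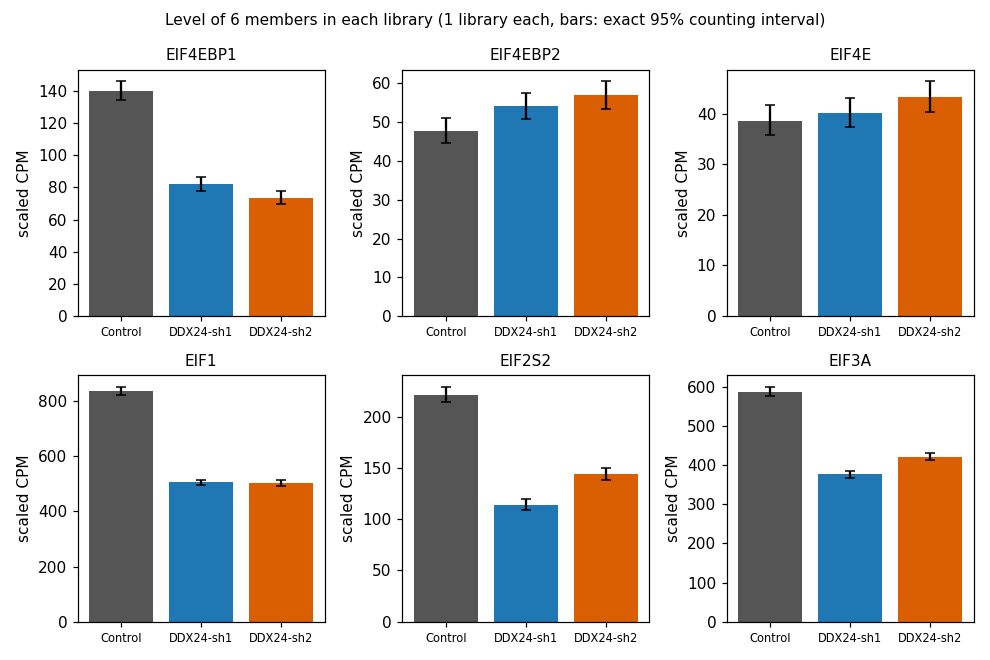
Scaled CPM (vertical axes, from 0) of EIF4EBP1, EIF4EBP2, EIF4E, EIF1, EIF2S2 and EIF3A in the 3 libraries, 1 library per bar, with exact 95% counting intervals as error bars. EIF4EBP1, EIF1, EIF2S2 and EIF3A are lower in both shRNA libraries than in Control, with counts of EIF4EBP1 going from 2393 to 1500 and 1330, while EIF4EBP2 is higher in both.

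EIF1 was lower by about the same amount in both shRNA libraries. Its product holds the scanning ribosome in the open state and enforces the choice of start codon. The gene (ENSG00000173812, chr17:41688885-41692668, plus strand) had 14265, 9231 and 9060 counts in Control, DDX24-sh1 and DDX24-sh2. The log2 ratios were -0.73 (-0.77 to -0.69) and -0.74 (-0.77 to -0.70), 60.4% and 60.1% of Control, and the shRNA libraries did not differ from each other beyond counting error (-0.01, -0.05 to 0.03). EIF1 was the second most abundant member per length, at an RPKM of 229 in Control, 139 in DDX24-sh1 and 140 in DDX24-sh2. EIF1B, its diverged copy shown above, had 573, 511 and 499 counts and log2 ratios of -0.26 (-0.44 to -0.09) and -0.28 (-0.46 to -0.10), lower in both but not called. The eIF1A genes, EIF1AX, EIF1AY and the related EIF1AD, were not called, with log2 ratios between -0.04 and 0.15 in DDX24-sh1 and between 0.14 and 0.28 in DDX24-sh2. EIF1AX shares 75.4% of its coding windows with its copy EIF1AXP1. Summed, the pair had 2243, 2190 and 2755 counts. Its log2 ratios of -0.13 (-0.22 to -0.05) and 0.22 (0.13 to 0.30) lay on opposite sides of Control, which those of EIF1AX alone did not beyond counting error. The scanning group, with EIF1AD counted in it, thus held 1 called gene of 5, where 8.95% of all genes were called.

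EIF2S2, which encodes the beta subunit of the tRNA carrier eIF2, was lower in both shRNA libraries, and its partner subunits were not. EIF2S2 (ENSG00000125977, chr20:34088298-34112332, minus strand) had 3779, 2089 and 2595 counts in the same order. The log2 ratios were -0.95 (-1.03 to -0.88) and -0.62 (-0.70 to -0.55), 51.6% and 64.9% of Control. It shares 61.9% of its coding windows with other genes, chiefly EIF2S2P4, which itself had 272, 156 and 128 counts. With its 4 pseudogenes added, the ratios of EIF2S2 were -0.95 and -0.65, so the difference was as large with the copies included.

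EIF2S1, the alpha subunit and the site of the phosphorylation that restrains initiation under stress, had 2191, 2086 and 2471 counts. Its log2 ratios were -0.17 (-0.26 to -0.08) and 0.09 (0.01 to 0.18), on opposite sides of Control. EIF2S3, the gamma subunit that binds GTP and the tRNA, had the highest level of this group, an RPKM of 95.1 in Control, and ratios of -0.17 (-0.22 to -0.11) and 0.02 (-0.04 to 0.07). Per length, EIF2S2 stood near EIF2S3 in Control (82.6 and 95.1) and lower in DDX24-sh1 (42.9 and 85.2) and DDX24-sh2 (54.7 and 98.2). EIF2S1 stood below both, at 22.5 in Control, 20.1 in DDX24-sh1 and 24.5 in DDX24-sh2. Of the coding windows of EIF2S3, 43.5% also occur in other genes. The alternative tRNA carriers EIF2A and EIF2D and the copy EIF2S3B had ratios of -0.34 to -0.05 in DDX24-sh1 and -0.18 to 0.03 in DDX24-sh2, and none was called. The 5 eIF2B genes, which encode the exchange factor for eIF2, had the narrowest range of ratios of the groups of core factors: 0 of 5 were called, with log2 ratios of -0.12 to 0.13 in DDX24-sh1 and -0.08 to 0.26 in DDX24-sh2. EIF2B1, the most abundant of them at an RPKM of 10.9 in Control, had 679, 797 and 859 counts.

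**Figure D3:**
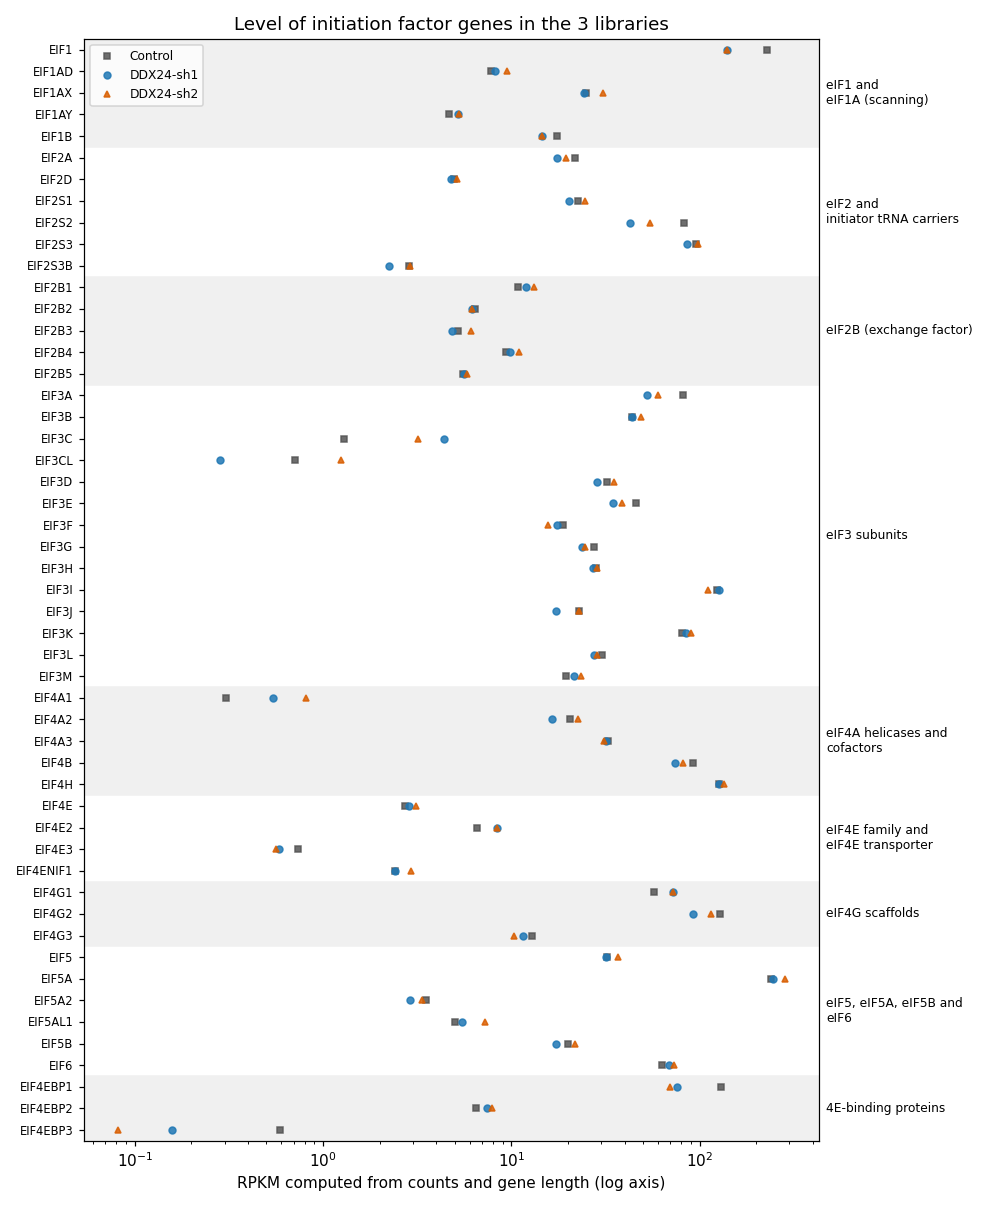
RPKM (horizontal log axis) of the 51 initiation factor genes with at least 1 count in every library, grouped by role. Squares are Control, circles DDX24-sh1 and triangles DDX24-sh2. EIF5A has the highest level (239 in Control), and EIF3C (1.30), EIF3CL (0.714) and EIF4A1 (0.306) stand far below the other genes of their groups.

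EIF3C was the eIF3 subunit gene called higher, at a level far below its partners. eIF3 subunits assemble into 1 complex, and 12 of the 14 genes had an RPKM of 18.9 to 124 in Control. EIF3C (ENSG00000184110, chr16:28688558-28735730, plus strand) had an RPKM of 1.30 and EIF3CL, a duplicate of it on the same chromosome, 0.714. EIF3C had 156 counts in Control, 563 in DDX24-sh1 and 397 in DDX24-sh2, giving log2 ratios of 1.74 (1.49 to 2.02) and 1.26 (1.0 to 1.54). EIF3CL had 38, 16 and 69 counts, with -1.24 (-2.29 to -0.47) and 0.75 (0.19 to 1.39), the opposite order of the shRNA libraries. As the sequences above show, the pair cannot be separated by its aligned coding sequence: 97.0% of the coding windows of EIF3C and 98.6% of those of EIF3CL occur in another gene. Summed, the pair had 194, 579 and 466 counts and ratios of 1.48 (1.24 to 1.72) and 1.18 (0.94 to 1.43). How reads matching both genes were counted is not given in the sources used here, so the values of EIF3C and EIF3CL are uncertain as measures of either gene.

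The remaining eIF3 subunits were not called. EIF3I, the most abundant at an RPKM of 124, had 3686, 4003 and 3427 counts and ratios of 0.02 (-0.05 to 0.08) and -0.19 (-0.25 to -0.12). EIF3D, which can itself bind the cap, had 2269, 2127 and 2544 counts and ratios on opposite sides of Control, -0.19 (-0.28 to -0.11) and 0.08 (0.00 to 0.17). EIF3A, the largest scaffold subunit, was singled out with its values known: 10027, 6883 and 7617 counts. Its ratios of -0.64 (-0.69 to -0.60) and -0.48 (-0.52 to -0.43) passed 1.5-fold in DDX24-sh1 alone. Of the other 9 subunits (without EIF3C and EIF3CL), the intervals of EIF3E, EIF3F, EIF3G and EIF3L lay below Control in both libraries and those of EIF3K and EIF3M above. EIF3B, EIF3H and EIF3J had at least 1 interval reaching Control. Over the 12 subunits the median ratios were -0.14 and -0.08.

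EIF4A1, the gene of the main eIF4A helicase, was called higher on very few reads. It had 28 counts in Control, 53 in DDX24-sh1 and 77 in DDX24-sh2, with log2 ratios of 0.78 (0.13 to 1.54) and 1.32 (0.74 to 2.06). The gene (ENSG00000161960, chr17:7572706-7579005, plus strand) shares 86.8% of its coding bases with other genes annotated on the same strand, among them AC016876.2 with 0 counts and the read-through SENP3-EIF4A1 with 1, 0 and 2 counts. Windows found in another gene made up 69.1% of its coding windows. With its 13 pseudogenes added there were 194, 185 and 223 counts, and the ratios became -0.17 in DDX24-sh1, the opposite sign, and 0.12 in DDX24-sh2. The level and the ratios of EIF4A1 are therefore uncertain as measures of the gene.

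The other cap-complex genes moved by less than 1.5-fold. EIF4A2, the second eIF4A helicase, had 2176, 1851 and 2482 counts and ratios of -0.33 (-0.42 to -0.24) and 0.11 (0.03 to 0.19), on opposite sides of Control. The helicase cofactor EIF4H, the most abundant of its group at an RPKM of 127, had ratios of -0.01 (-0.06 to 0.03) and 0.05 (0.00 to 0.09). EIF4B, the other cofactor, and EIF4A3, an eIF4A homologue of the exon junction complex, had ratios of -0.32 to -0.04 and were not called. EIF4E2, the eIF4E homologue linked to repression of bound mRNAs, had the highest level of the eIF4E family, with 808, 1106 and 1077 counts. It was higher in both libraries, at 0.35 (0.22 to 0.49) and 0.33 (0.20 to 0.47). EIF4E3 had 136, 116 and 108 counts, and 75.4% of its coding windows occur in another gene. The eIF4E transporter gene EIF4ENIF1 had 254, 269 and 318 counts.

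The eIF4G scaffold genes went different ways. EIF4G2, a homologue that lacks the eIF4E-binding site and serves cap-independent initiation, had the most counts of any member: 19197, 14602 and 17665. Its ratios were -0.49 (-0.53 to -0.46) and -0.20 (-0.23 to -0.17). EIF4G1, the scaffold of eIF4F, also singled out with its values known, had 8132, 10868 and 10664 counts and ratios of 0.32 (0.28 to 0.36) and 0.31 (0.27 to 0.35). EIF4G3 lay below Control in both libraries, at -0.17 and -0.35. All 6 of these ratios stayed under 1.5-fold, and their narrow intervals reflect the depth of these genes, not replicate cultures.

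In the last group, EIF5A was the most abundant of all members, with an RPKM of 239 in Control, 246 in DDX24-sh1 and 286 in DDX24-sh2. It carries the hypusine modification and acts mainly in elongation and termination. EIF5A had 11599, 12716 and 14347 counts and ratios of 0.03 (0.00 to 0.07) and 0.23 (0.19 to 0.26). EIF5AL1, its copy on chromosome 10, had 331, 385 and 497 counts and ratios of 0.12 (-0.10 to 0.33) and 0.50 (0.30 to 0.71), but 98.1% of its coding windows occur elsewhere. EIF5B, the GTPase of subunit joining, had 2710, 2492 and 3065 counts and ratios on opposite sides of Control, -0.22 (-0.30 to -0.14) and 0.10 (0.02 to 0.17). None of the 6 genes of the group was called, and the others (EIF5, EIF5A2 and EIF6) had ratios of -0.28 to 0.19.

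Compared with each other, the shRNA libraries differed for many core factors, mostly in 1 direction. DDX24-sh2 was above DDX24-sh1 for 36 of 48 core factors, with a median log2 difference of 0.13, against 6736 of 13984 genes overall that passed 1 CPM. The 44 core factors with a mean of 10 CPM or more were set beside all 9661 genes above that floor. The counting interval lay above 0 for 24 of the 44 (54.5%) and below 0 for 4 (9.09%), against 23.5% and 28.5% of all genes. The share of intervals clear of 0 depends on the counts per gene, which were not matched between the core factors and all genes. Per length, the core factors had the higher median RPKM in Control, 22.7 against 8.75. The median log2 difference was 0.12 for these core factors and -0.01 for all genes. All 6 genes of the eIF2 group and all 6 of the eIF5 to EIF6 group were higher in DDX24-sh2, 4 in each group beyond counting error. Each group includes a copy of another of its genes, EIF2S3B and EIF5AL1. Among members that passed 1 CPM the difference was largest for EIF3CL, 2.0 (1.33 to 3.01). Among the 44 it was largest in size for EIF3C, which ran the other way, at -0.48 (-0.67 to -0.30). Of those higher in DDX24-sh2, EIF4A2 came first, 0.44 (0.35 to 0.53), ahead of EIF5AL1, 0.39 (0.19 to 0.58), and EIF3J, 0.38 (0.26 to 0.50), the last picked by its value. Intervals on opposite sides of Control occurred in 5 of 50 members (10.0%), against 2.60% of all genes: EIF2S1, EIF3CL, EIF3D, EIF4A2 and EIF5B. At a mean of 10 CPM or more it was 4 of 46 members (8.70%) against 3.55% of all genes, without EIF3CL. Under the names of the FPKM values these differences have the opposite sign. They compare 2 libraries, and whether other cultures of the same lines would differ likewise was not tested.

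**Figure D4:**
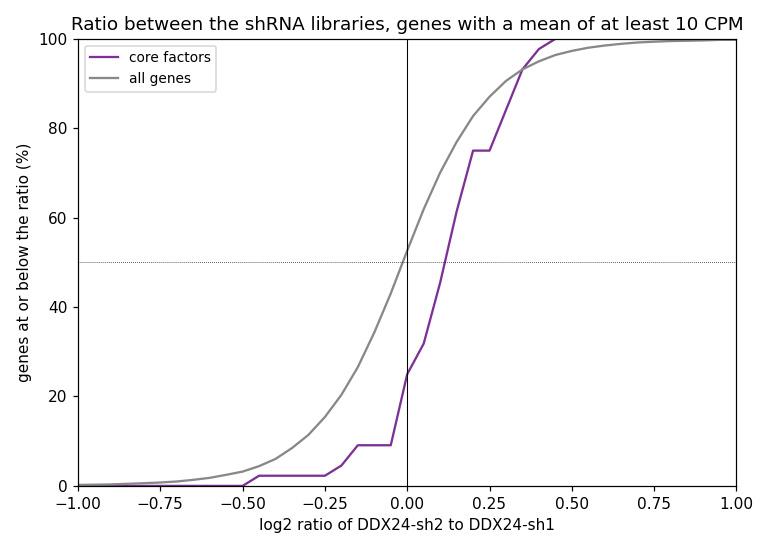
Cumulative share of genes (vertical axis, %) at or below a given log2 difference, DDX24-sh2 minus DDX24-sh1 (horizontal axis), for 44 core factors and all 9661 genes with a mean of 10 CPM or more. At a ratio of 0 the curve of the core factors stands at 25% and that of all genes at 52.6%.

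The neighbouring genes of the translation machinery were read by the same rule, against the same background of 4.72% of all genes called lower and 4.23% higher. Of 9 genes for eIF2 kinases and phosphatase subunits, 3 were called lower and 0 higher, with medians of -0.18 and -0.10. By counting error alone, 6 of the 9 lay below Control in both libraries and 1 above, the eIF2 kinase gene EIF2AK4 (0.34 and 0.26). PPP1R15A, the stress-induced subunit that directs the phosphatase to eIF2 alpha, had 2973, 949 and 697 counts and ratios of -1.75 and -2.17. EIF2AK3, the eIF2 kinase of the endoplasmic reticulum, had 703, 428 and 398 counts (-0.81 and -0.90), and PPP1R15B, the constitutive phosphatase subunit, 2653, 1881 and 1841 (-0.60 and -0.61). Of 12 genes for mTORC1, its regulators and the kinases RPS6KB1 and RPS6KB2, 0 were called, with medians of 0.01 and 0.02. By counting error alone, 3 of them lay below Control in both libraries and 1 above. Those below were DDIT4 (-0.33 and -0.50), TBC1D7 (-0.18 and -0.61) and RHEB (-0.16 and -0.25). The gene above was RPTOR (0.30 and 0.15). Among 10 genes for MNK kinases and other regulators of eIF4F, PAIP2B was called lower on 50, 28 and 33 counts, and PABPC1, the poly(A)-binding partner of eIF4G, had 17224, 12593 and 14156 counts (-0.55 and -0.36).

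No gene was called among 7 recycling, reinitiation and helicase cofactors, 8 elongation factors, 3 termination factors or 2 mitochondrial initiation factors. EEF2, the translocase of elongation, lay just under 1.5-fold lower in both libraries, with 40273, 29781 and 28614 counts (-0.54 and -0.57). By counting error alone, it was the 1 elongation gene below Control in both libraries. The 2 above were EEF1A2 (0.27 and 0.39) and EEF2K (0.29 and 0.38). EEF1G, a further elongation factor, had 0 counts in every library, and 100% of its coding bases are also annotated to AP002990.1 on the same strand. Of the 2 hypusine enzymes, DOHH was not called and DHPS (12, 22 and 19 counts) did not pass 1 CPM. For DHPS, 83.2% of coding bases are also annotated to at least 1 other gene on the same strand, and 61.7% of coding windows are shared. Its counts are therefore uncertain as a measure of the gene.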

How the data were processed

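The authors deposited, for each of the 3 A549 libraries, counts per gene (whole numbers, not normalized) and FPKM per gene. The submitters' processing notes name Bowtie2 2.0.6, TopHat2 2.0.9, Cufflinks 2.1.1 and Cuffdiff 2.1.1, without their roles. The counter, strandedness, treatment of reads with several matches and genome build are not given in the sources used here. Libraries were made from 4 µg of total RNA.

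Members and gene lists were chosen with earlier results of these data known. Gene positions of members match GENCODE 29 (GRCh38). Ratios were computed from counts with edgeR 4.0.16 in R 4.3.3 (TMM scaling, log2 CPM, prior count of 2). Intervals are exact 95% conditional binomial (Clopper-Pearson) intervals. Without molecular identifiers, reads may be PCR copies and intervals cover counting error only. RPKM used the listed gene lengths. Shared windows and coding alignments were computed from GENCODE 29 transcripts with Biopython 1.88 and Python 3.11.15. The scripts were tested on simulated data.

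Genes named were the 4E-binding proteins, called members, members with ratios of opposite sign beyond counting error, and the most abundant member of each role. Of the other lists, up to 3 genes with the largest change were named, and further genes were named with their values known. Alternatives were DESeq2 1.42.0 size factors, total-count scaling, the deposited FPKM (log2 with a pseudocount of 0.1), a prior count of 0.5, other filters and thresholds, each shRNA library alone, and sums with pseudogenes. Sums of EIF3C with EIF3CL and the removal of members with shared sequence were added after the data had been seen.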

Additional observations from a re-analysis of the deposited data

Results flagged for a closer look

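Opposite directions in the shRNA libraries, each beyond its counting interval, occurred in 5 members. With 1 library per condition the difference was not tested. The log2 ratios to Control in DDX24-sh1 and DDX24-sh2 were -0.17 and 0.093 for EIF2S1, -0.19 and 0.084 for EIF3D, -0.33 and 0.11 for EIF4A2, and -0.22 and 0.10 for EIF5B. EIF3CL had -1.24 and 0.75 on 16 to 69 counts. EIF3CL shares 98.6% of its coding windows with another gene, whereas EIF2S1, EIF3D and EIF5B share 0%.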

How the results depend on the processing

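No paired analysis was possible because each condition has 1 library and the 3 libraries share only a number. For the same reason no replicate could be left out. Of 268 values computed under an alternative, 227 lay within their counting interval or count limit. Of these the ratio of EIF4H in DDX24-sh1, next to 0, changed sign with DESeq2 size factors and with the exchanged FPKM. DESeq2 size factors, scaling by total counts, a prior count of 0.5 and the FPKM with exchanged shRNA names changed no value beyond these limits. The FPKM with names as deposited changed the order of the shRNA libraries: in DDX24-sh1 and DDX24-sh2 the log2 ratios of DDX24 were -1.45 and -1.72, those of EIF4EBP1 -0.92 and -0.76, EIF3CL 0.71 and -1.09, the core factor median 0.074 and -0.045, and the RPKM ratio of EIF4EBP1 to EIF4E 22.4 and 26.8. With its pseudogenes, EIF4A1 had -0.17 in DDX24-sh1. The count of members called higher went from 2 to 1 at a mean of at least 10 CPM (EIF4A1 lost), to 1 at 2-fold and to 0 without members sharing over 25% of their coding windows. The count called lower went from 3 to 0 at 2-fold, and to 5 both at a threshold of 0.32 on the log2 scale and in DDX24-sh1 alone. It went to 2 without members sharing over 25% of their coding windows (EIF2S2 lost). Depth limits EIF4EBP3, EIF4E1B, EIF4A1 and EIF3CL, each under 100 counts in every library.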
